A study of Mus musculus with 3 samples.

Results

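The MAP4K kinases are the upstream tier of the mitogen-activated protein kinase cascades. They belong to the Ste20-like serine/threonine kinases, pass signals from receptors and adaptor proteins to MAP3 kinases and so to the JNK kinases, and also phosphorylate LATS kinases in the Hippo pathway beside the MST kinases. Map4k1, Map4k2, Map4k3 and Map4k5 form one branch of the family, and Map4k4, Mink1 and Tnik form the other. The 7 genes were taken by their symbols on the array. The family was chosen by the difference of Map4k5 between the oxymatrine and control arrays in earlier results of the same data. The platform annotation used here names a probe set, 1 each, for 5 of the 7 genes among 19505 named genes. Map4k2, a kinase that binds the small GTPase Rab8, and Map4k3, which takes part in T cell activation and amino acid sensing, were not analysed here.

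The levels come from 3 arrays, 1 for each group of wild-type bone marrow-derived plasmacytoid dendritic cells, the dendritic cells known for their output of type I interferon. Marrow cells came from BALB/c males, 4 to 5 weeks old, and were cultured for 6 to 9 days with 100 ng/mL Flt3 ligand, and CpG oligodeoxynucleotides, which activate TLR9, were used to mature the cells before sorting. The groups were control cells, cells given astragaloside IV, a plant saponin, and cells given oxymatrine, a plant alkaloid, each for 12 h before 1 h with the CCR7 ligand CCL21. The study asked how these compounds inhibit migration of the cells. The doses, a vehicle, the number of mice behind an array and whether control cells met CCL21 are not stated, so a difference from control cannot be told apart from an effect of the CCL21 step. With 1 array per group no difference has a replicate check, no test was possible, and all values below are single measurements on the log2 scale.

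Of 12 measured markers of plasmacytoid dendritic cells, 11 lay above background, set at a log2 level of 5.28, the 95th percentile over the 1410 genes of odorant and pheromone receptors. The mean level of the 12 was 10.11 for control, 10.02 for astragaloside IV and 10.01 for oxymatrine, and wherever 3 levels of a gene are listed they follow this order of arrays. All 5 measured monocyte and macrophage markers lay above background too, with means between 12.77 and 12.78, while 0 of 6 measured T and NK cell markers did. Conventional dendritic cell markers (5 of 8 above background) had means between 6.38 and 6.43, B cell markers (3 of 5) between 6.68 and 6.76 and neutrophil markers (1 of 6) between 5.38 and 5.54. The cut of 5.28 lies below the means of the negative control probe sets, 5.60, 5.76 and 5.76. Genes counted close to it, such as the B cell gene Ms4a1 at 5.55, 5.55 and 5.63, may therefore lie within background. The B cell genes Cd79b, at 10.13, 9.91 and 10.13, and Ebf1, at 7.81, 8.12 and 8.14, lay well above the cut. So did the conventional dendritic cell marker Sirpa, at 14.90 in each array, and the neutrophil marker Csf3r, at 10.59, 10.11 and 10.49. The integrin gene Itgae, at 6.50, 5.77 and 6.01, was the only marker above background past 1.5-fold in any comparison. The cells had been sorted before RNA extraction, by markers the labels do not name, and the part of these cell types in the differences below was not tested.

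Map4k5, also known as GCKR or KHS, is a kinase of the Map4k1 branch that activates JNK downstream of TNF receptors and the adaptor TRAF2. The control array gave a level of 10.86, the astragaloside IV array 10.39 and the oxymatrine array 9.73. The control array was the highest and the oxymatrine array the lowest, with astragaloside IV between them, and all 3 values were well above background. The gene, with the Entrez identifier 399510, lies on mouse chromosome 12. In bulk RNA of a sorted population, fewer cells that carry a transcript and less of it per cell cannot be told apart.

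Map4k5 differed from control by -1.13 with oxymatrine, which is 2.18-fold lower if the deposited scale is a plain log2. The deposited values reach 19.7, higher than plain log2 values of scanner intensities usually go, so the scale may be stretched, and folds here, thresholds included, hold on that scale. Map4k5 was the 9th lowest of 10671 genes above background in that comparison and the 17th by size in either direction. The SD of this difference over genes of similar level was 0.19, and the central 99% of the 533 genes nearest in level ran from -0.76 to 0.52. These numbers describe other genes on the same arrays and are no replicate error. They repeat the contrast that led to the choice of the gene and carry no test.

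With astragaloside IV the difference of Map4k5 from control was -0.46, or 1.38-fold lower, short of the 1.5-fold threshold of 0.58 used to count genes. It ranked 275th from the lowest of the 10671 genes, between the edge of the central 95% of genes of like level at -0.42 and that of the central 99% at -0.51. The oxymatrine array lay below the astragaloside IV array by a difference of -0.66, or 1.58-fold, the 101st lowest of 10671. This was just past the -0.66 edge of the central 99% of genes of like level. The 3 comparisons share arrays and are not independent of one another. The order control, astragaloside IV, oxymatrine from high to low was found in 1474 genes, or 13.8% of those above background.

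**Figure D1:**
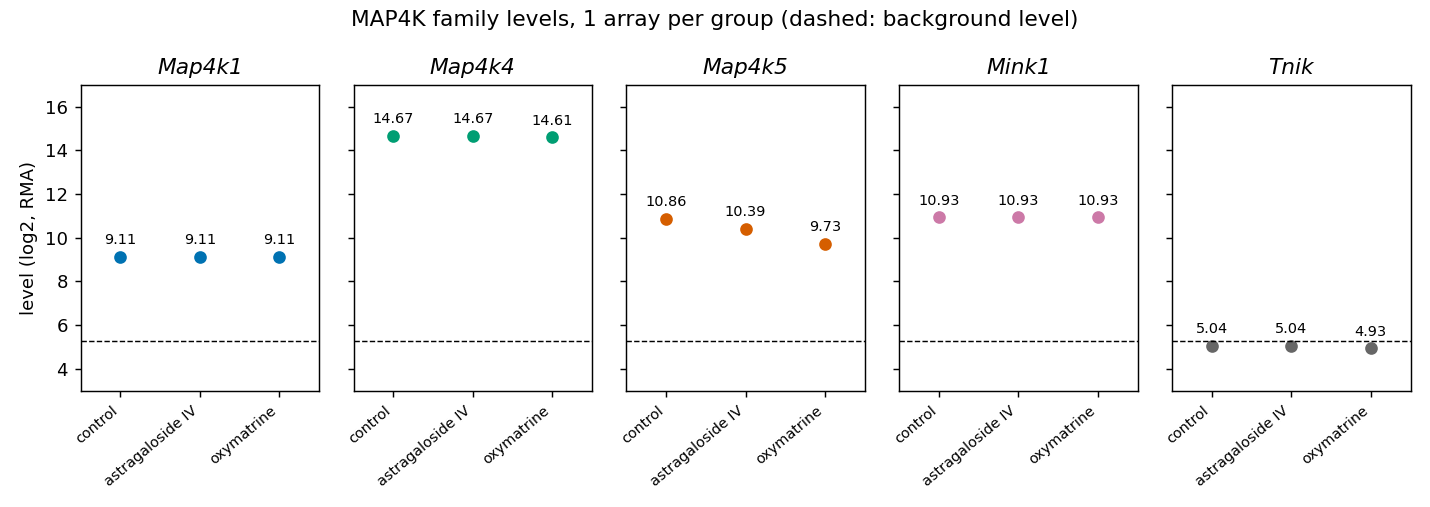
Log2 RMA level (y axis) of the 5 measured MAP4K genes in the control, astragaloside IV and oxymatrine arrays (x axis), 1 point per array, with the background level of 5.28 as a dashed line. Map4k5 stood at 10.86, 10.39 and 9.73. The values of Map4k1, Map4k4 and Mink1 were nearly equal across arrays. Tnik lay below background, so no difference is read from it. Heights of different genes are not comparable because each probe set has its own response.

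The other member of this branch that was measured is Map4k1, or HPK1, a kinase found mainly in blood cells that restrains signalling from antigen receptors. Its level was 9.11 in the control array and the same deposited value in both treated arrays. Under 3 other scalings of the arrays its differences stayed within 0.04 of 0 in size and took either sign. Map4k1 lay above background in arrays in which T and NK cell markers did not.

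In the other branch, Map4k4, or HGK, acts in TNF signalling and in the turnover of focal adhesions in moving cells. Control and astragaloside IV cells shared a level of 14.67, and oxymatrine cells had 14.61. The difference from control was -0.07 with oxymatrine, inside the SD of 0.11 over genes of its level, and between -0.09 and -0.03 under the other scalings. Mink1, a kinase that binds the small GTPase Rap2, was at 10.93 in all 3 arrays, and its differences were at most 0.05 in size under any alternative. Tnik, which binds TRAF2, NCK and Rap2 and serves as a kinase of the Wnt transcription complex, was at 5.04, 5.04 and 4.93. All 3 values lie below the background level, so no difference can be read from them.

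Exact equality between arrays is a common feature of these deposited values. Of the 10671 genes above background, 1454, or 13.6%, had 1 value in all 3 arrays, as Map4k1 and Mink1 did, and 51.6% had the same value in at least 2. Equal to control were 27.7% with astragaloside IV and 24.4% with oxymatrine. An equal value therefore does not show that a transcript was unchanged to that precision.

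Of the 4 members above background, 0 were 1.5-fold apart in the astragaloside IV comparison, where 2.13% of all genes were. In the oxymatrine comparison 1 of 4 was, Map4k5, against 3.31% of all genes, and it was also the only 1 at 2-fold, against 0.281%. Between the treated arrays 1 of 4 was 1.5-fold apart, against 2.58%. As the choice of genes used these contrasts, nothing is read from these shares. The median difference of the 4 members was 0 with astragaloside IV and -0.03 with oxymatrine, and that of all genes was 0 in both.

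**Figure D2:**
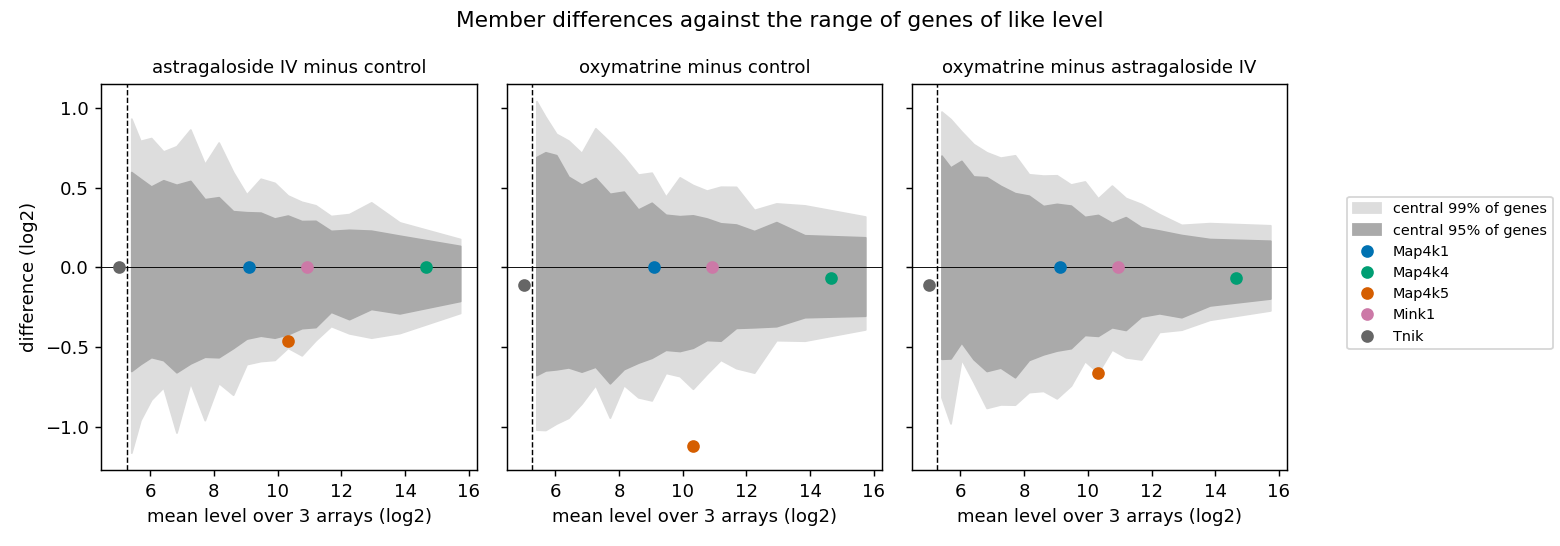
Log2 difference (y axis) of each measured MAP4K gene against its mean level over the 3 arrays (x axis) in the 3 comparisons, with grey bands for the central 95% and 99% of genes of like level, in 20 bins, and the background level dashed. Map4k5, chosen by the oxymatrine contrast with control, lay at -0.46, -1.13 and -0.66 in turn. It was below the central 99% of genes in that contrast and at its edge between the treated arrays. Map4k1, Map4k4 and Mink1 lay near 0.

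The wider Ste20-like kinase group was listed beside the family. As Map4k5 was chosen by its oxymatrine difference, smaller differences in this group were fixed in advance and no contrast is read. Of 23 listed kinases outside the MAP4K family, 21 were measured and 16 lay above background. None of the 16 was 1.5-fold from control, where 2.13% of all genes were with astragaloside IV and 3.31% with oxymatrine. With oxymatrine 10 were lower, 2 higher and 4 equal, with differences from -0.48 to 0.20 and a median of -0.03. Over all 10671 genes above background 46.0% were lower and 29.7% higher with oxymatrine, and 40.8% lower and 31.4% higher with astragaloside IV. Under 3 other scalings the oxymatrine median of these kinases ran from -0.06 to 0.0043, so its sign turned. The lowest oxymatrine difference was that of Strada, a pseudokinase that activates LKB1, which was at 6.87, 6.87 and 6.38. Its homologue Stradb was at 9.36, 9.88 and 9.36, higher in the astragaloside IV array by 0.52. Nrk, the closest relative of the Map4k4 branch, was near background at 5.60, 5.13 and 5.36. Strada, Stradb and Nrk were singled out after their values were seen. Of the Ste20-like kinases with the highest control levels, Slk differed from control by -0.02 with each compound, Stk24 by -0.06 and -0.12 and Taok3 by 0.14 with each.

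The adaptors and partners that MAP4K kinases bind were all 18 above background, and 0 of 18 reached 1.5-fold in any of the 3 comparisons. Over all genes 2.13% did with astragaloside IV, 3.31% with oxymatrine and 2.58% between the treated arrays. With astragaloside IV 11 were lower, 2 higher and 5 equal, with a median of -0.02, and with oxymatrine 10 were lower, 2 higher and 6 equal, with a median of -0.01. Among all genes 40.8% were lower and 31.4% higher with astragaloside IV, and 46.0% and 29.7% with oxymatrine. The oxymatrine median of the adaptors was 0.02 after quantile normalisation and after lowess centring, the opposite sign. The lowest differences from control in this list were those of the SH2 and SH3 adaptors Grb2 and Nck2. Grb2 differed by -0.45 with each compound, and Nck2 by -0.30 with astragaloside IV and -0.47 with oxymatrine. Grb2, which joins receptor tyrosine kinases to Ras and binds Map4k1, was at 13.89 in the control array and 13.44 in both treated arrays. Nck2, an adaptor for actin signalling, was at 10.42, 10.12 and 9.95, and its homologue Nck1 at 10.23, 10.07 and 10.20. Traf2, the TNF receptor adaptor that binds Map4k5, was nearly level at 12.63, 12.58 and 12.60. Crkl, another SH3 adaptor that binds Map4k5, was at 12.14, 12.33 and 12.12, highest with astragaloside IV. Lcp2, the SLP-76 scaffold that Map4k1 phosphorylates in T cells, was at 11.37 in each array, and the ubiquitin ligase gene Cblb at 16.12, 16.12 and 16.13. Nck2, Nck1, Traf2, Crkl and Lcp2 were named after their values were seen.

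The STRIPAK complex, a phosphatase and kinase assembly that binds the Map4k4 branch, had 16 of 17 measured genes above background. With oxymatrine 9 were lower, 0 higher and 7 equal, with a median of -0.02 and the lowest at -0.35, and with astragaloside IV 5 were lower, 2 higher and 9 equal, with a median of 0. Among all genes 46.0% were lower and 29.7% higher with oxymatrine, and 40.8% lower and 31.4% higher with astragaloside IV. The STRIPAK median with oxymatrine turned to 0.0092 after lowess centring. Ppp2r1a, the scaffold subunit of protein phosphatase 2A, was at 14.37, 14.32 and 14.35. Cttnbp2nl was at 12.89 in each. A further list held partners at the cell cortex and at adhesions, the genes of ezrin, radixin and moesin, Arf6 and its activator Iqsec1, and the EB proteins of microtubule ends. All 7 of its genes were above background, and with oxymatrine they differed from control by -0.07 to 0, with a median of 0 that ran from -0.03 to 0.02 under the other scalings.

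Below the MAP4K tier stand the MAP3 kinases, of which 10 of 15 measured were above background. With astragaloside IV 3 were lower, 6 higher and 1 equal, with a median of 0.05. With oxymatrine 2 were lower, 6 higher and 2 equal, with a median of 0.02. Of all genes 40.8% were lower and 31.4% higher with astragaloside IV, and 46.0% and 29.7% with oxymatrine. After centring on the median the oxymatrine median rounded to 0, and with no level filter the astragaloside IV median was -0.07. Map3k4, a MAP3 kinase of the p38 and JNK cascades, was at 7.02, 6.79 and 7.61, highest in the oxymatrine array. It was the only gene of this list past 1.5-fold, by 0.59 against control and 0.82 against the astragaloside IV array, so that 1 of 10 was past it in comparisons in which 3.31% and 2.58% of all genes were. After centring on the median the first of these was 0.56, and after quantile normalisation 0.58, both short of the threshold. Map3k1 was at 15.59, 15.67 and 15.62, Map3k7, or TAK1, at 11.28, 11.46 and 11.46, and Map3k14, or NIK, at 15.17, 15.07 and 15.03.

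At the end of the cascade stand the JNK and p38 kinases and the transcription factors they phosphorylate. Of 18 measured genes of the JNK and p38 module, 12 were above background, and 0 of these were 1.5-fold apart in any comparison. Over all genes 2.13% were with astragaloside IV, 3.31% with oxymatrine and 2.58% between the treated arrays, so a count of 0 is near these shares. The medians were 0 with astragaloside IV and -0.01 with oxymatrine, and the second was 0.03 after quantile normalisation and 0.02 after lowess centring. Of the 3 MAP kinase genes above background, Mapk14, or p38 alpha, was at 11.11, 10.98 and 10.73, and Mapk8, or JNK1, at 7.51, 7.52 and 7.23, both lowest in the oxymatrine array. Mapk9, or JNK2, was at 10.27, 10.25 and 10.25. Elk1, a transcription factor of this module, was at 8.08 in the control array and 7.82 in both treated arrays, and these 4 genes were named after their values were seen. The JNK substrate gene Jun, itself a transcriptional target of the pathway, was at 12.86, 12.93 and 12.86, Jund at 12.01, 12.06 and 11.98, and Atf2 at 12.61, 12.63 and 12.80. Of 10 dual-specificity phosphatases above background, a family that includes phosphatases of MAP kinases, none was 1.5-fold apart in any comparison, against the same shares of all genes. Dusp1 was at 17.25 in each array, and Dusp5 at 16.07 in control and 15.97 in both treated arrays.

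The Hippo pathway, which restrains growth through LATS kinases and the co-activators YAP and TAZ, had 11 of 19 measured genes above background. Yap1 and Wwtr1, the genes of YAP and TAZ, were not among them, at levels between 2.73 and 4.56, and were named after their values were seen. Of the 11, 7 were lower and 2 higher with astragaloside IV and 7 lower and 3 higher with oxymatrine, with a median of -0.08 in both, where 40.8% and 46.0% of all genes were lower and 31.4% and 29.7% higher. With no level filter the Hippo median was -0.08 with astragaloside IV and 0 with oxymatrine. The 2 comparisons share the control array. In the deposited scaling 0 of 11 were 1.5-fold from control, where 2.13% of all genes were with astragaloside IV and 3.31% with oxymatrine. Tead3, a transcription factor that binds YAP, came closest at 6.64, 6.50 and 6.06, a difference of -0.578 with oxymatrine, and passed the threshold with arrays centred on their medians, at -0.60, and with quantile normalisation, at -0.61. Nf2, the gene of merlin, an activator of the pathway, was at 10.26, 9.74 and 9.81, lower in both treated arrays. Tead3 and Nf2 were named after their values were seen. Mob1a, a LATS co-activator, was at 14.05, 13.78 and 13.81, and the MST1 gene Stk4 at 12.64, 12.44 and 12.51.

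In the nutrient-sensing pathway of mTORC1, in which Map4k3 acts, 14 of 14 measured genes were above background. Of these, 0 were 1.5-fold apart with astragaloside IV and 2 with oxymatrine, in opposite directions, where 2.13% and 3.31% of all genes were. Lamtor4, a subunit of the Ragulator complex on the lysosome, was at 9.15, 9.29 and 8.47, lowest in the oxymatrine array by a difference from control of -0.68. Tfeb, the transcription factor of lysosome genes that Map4k3 and mTORC1 restrain, was at 6.70, 6.69 and 7.30, a difference of 0.60 with oxymatrine. That difference was 0.57 after centring on the median, short of 1.5-fold, and 0.60 after quantile normalisation, past it. Rheb, the GTPase that activates mTORC1, was at 14.40, 14.11 and 14.20, and Rragc at 14.11, 14.11 and 14.04.

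**Figure D3:**
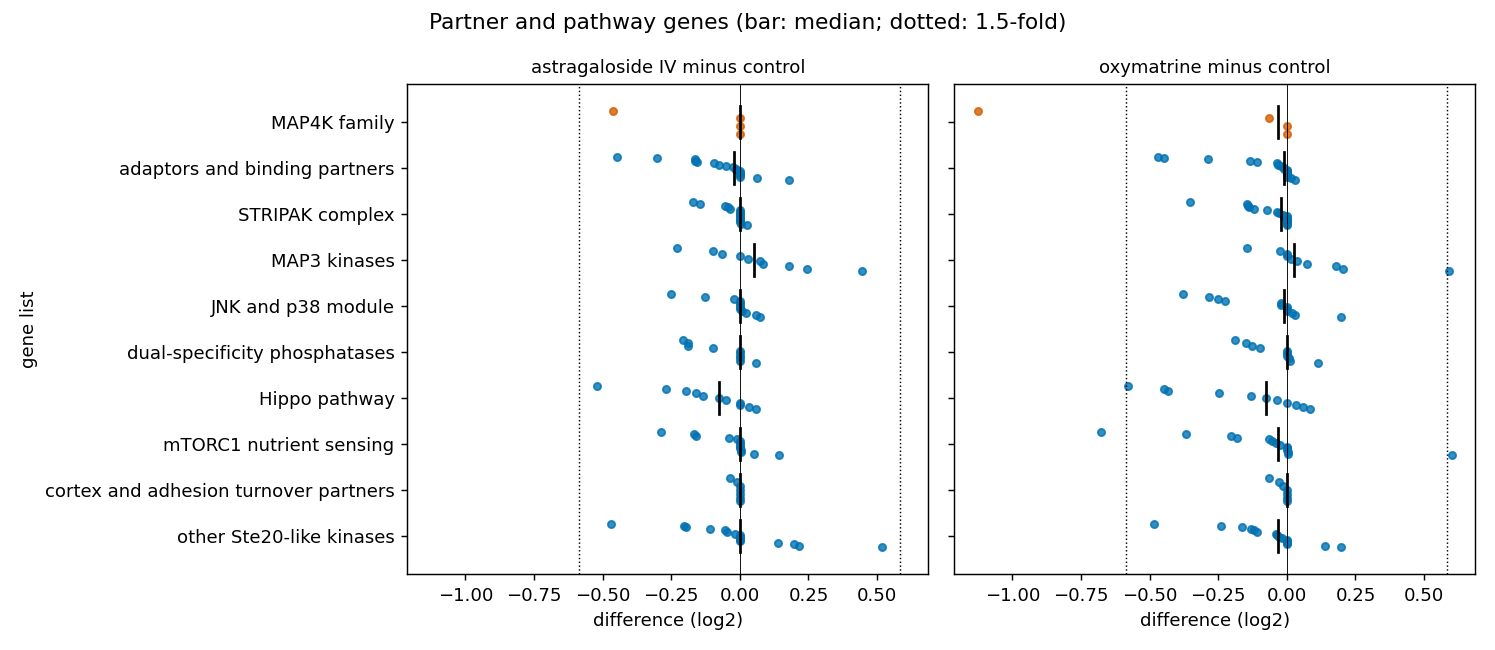
Log2 difference from control (x axis) of each gene above background in the MAP4K family and 9 partner or pathway lists (y axis), with astragaloside IV on the left and oxymatrine on the right; black bars are list medians and dotted lines mark 1.5-fold. Map4k5, at -1.13 with oxymatrine, was chosen by this contrast, so its distance from the listed genes carries no test. Of the listed genes, Lamtor4 at -0.68, Tfeb at 0.60 and Map3k4 at 0.59 passed 1.5-fold with oxymatrine.

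The chromosomal surroundings of Map4k5 were examined after its values had been seen. Among the 6 named protein-coding genes on each side in the RefSeq gene order of GRCm38.p6, 10 of 12 were measured and 6 of these lay above background. Of these 6, 0 were 1.5-fold lower than control with either compound. Over all genes 2.13% were 1.5-fold from control in either direction with astragaloside IV and 3.31% with oxymatrine, so nothing is read from 6 genes. The neighbour on one side, Atl1, whose annotated span overlaps that of Map4k5, was not analysed here, and the next gene beyond it, the Hippo scaffold gene Sav1, was at 12.29, 12.33 and 12.26. On the other side Sos2, a Ras activator, was at 11.17, 11.17 and 11.23, and Arf6 at 14.47, 14.43 and 14.45. Vcpkmt, a lysine methyltransferase gene, was higher with oxymatrine, at 10.48, 10.53 and 11.07, a difference of 0.59, and was the only 1 of the 6 past 1.5-fold. After centring on the median this difference was 0.56, short of the threshold, and after quantile normalisation 0.65, past it.

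**Figure D4:**
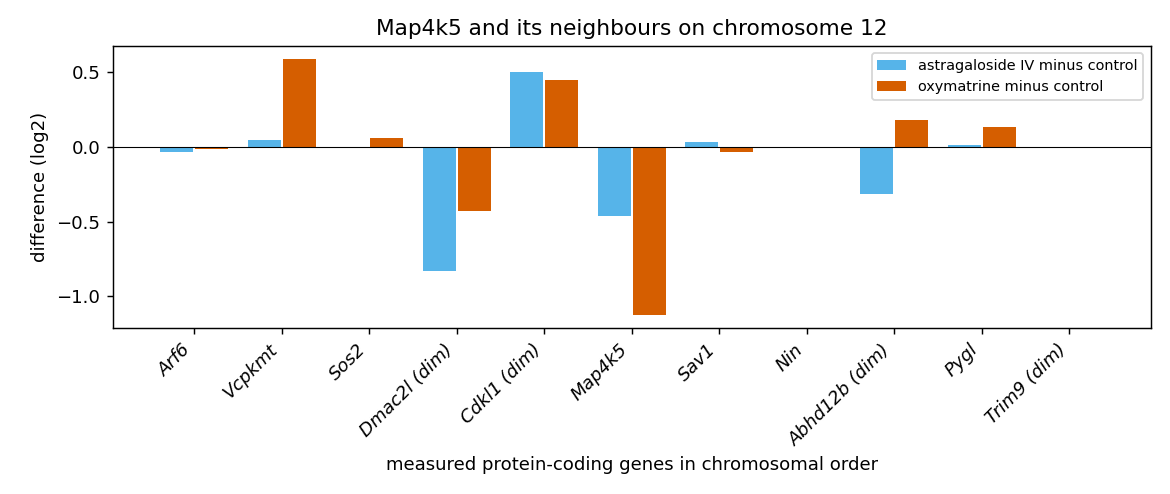
Log2 difference from control (y axis) with astragaloside IV (blue) and oxymatrine (orange) for Map4k5 and its 10 measured protein-coding neighbours in chromosomal order (x axis), 1 array per group, with genes below background marked dim. The oxymatrine bar of Map4k5, the gene chosen by this contrast, reaches -1.13. The oxymatrine bars of the 6 neighbours above background lie between -0.04 and 0.59.

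The genes whose 2 differences from control came closest to those of Map4k5 over the 3 arrays were Pex5, Faap20 and Ift172, by Euclidean distance on the log2 scale. Pex5, the import receptor of peroxisomes, was at 6.79, 6.30 and 5.63, at a distance of 0.04. Faap20, a subunit of the Fanconi anaemia core complex, was at 8.22, 7.72 and 7.08, also at 0.04. Ift172, a protein of intraflagellar transport, was at 6.98, 6.48 and 5.93, at 0.08. With 3 arrays such likeness rests on 2 differences that share the control array.

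Probe sets marked as positive controls by their identifiers had a mean of 10.25, 10.21 and 10.12, and those marked negative had means of 5.60, 5.76 and 5.76. The positive controls were thus lower in the oxymatrine array by a mean difference of -0.13, in the same direction as Map4k5. The negative controls went the other way, with mean differences of 0.16 with astragaloside IV and 0.15 with oxymatrine. The part of either kind in the Map4k5 difference of -1.13 was not tested.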

How the data were processed

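The authors deposited a table with a log2 value for every probe set in each array, produced by RMA per the submitters' processing notes. RMA corrects background, makes the arrays' distributions alike and fits the probes of a set together, which can yield equal values in several arrays. The deposited distributions were not identical, with medians over all probe sets of 5.68, 5.74 and 5.75. Which software and kind of RMA were used is not given in the sources used here, while the values, which run from 1.78 to 19.7, were taken as log2 because RMA writes that scale. Their upper end is above what plain log2 intensities usually reach, so the scale may be stretched and a stated fold may differ from the fold in RNA. Of 28846 probe sets, 19572 had 1 symbol in the platform annotation, and the brightest was kept for each of 55 genes with several. Genes were kept from a mean log2 level of 5.28 upward, which left 10671.

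Differences are between deposited values, with no test, and genes were counted from 1.5-fold upward. The SD over genes of like level uses 20 bins. A comparison of protein sequences had been planned and was not made here. Of 204 listed symbols, 188 were matched. The members and lists were chosen with earlier results of these data known. Named were all members, listed genes past 1.5-fold, the 3 brightest of a list in control, and the 3 genes nearest in pattern to a member past 1.5-fold; predicted, numbered and receptor genes were left out, and other names are marked as chosen after their values were seen. Not every gene the rule names is described. Alternatives were 2 other level filters, 3 other scalings, another probe set rule and a 2-fold threshold. The counting was tested on simulated data. Python 3.11.15, numpy 2.4.6, pandas 2.3.3, statsmodels 0.14.6 and matplotlib 3.10.9 were used.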

Additional observations from a re-analysis of the deposited data

How the results depend on the processing

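The difference of Map4k5 from control ranged from -1.15 to -1.08 with oxymatrine and from -0.46 to -0.45 with astragaloside IV over 6 alternatives of level filter, scaling and probe set rule, and between the treated arrays from -0.69 to -0.63. At a threshold of 2-fold in place of 1.5-fold, 0 members were apart between the treated arrays, against 1, by the construction of the threshold. No paired analysis was possible because each group has 1 array. The number of arrays limits the precision, and the spread between cultures is unknown. The alternatives for list medians and for genes outside the family were added after the data had been seen. Over the deposited values and 3 other scalings, the median of the Hippo list with oxymatrine stayed between -0.10 and -0.04. That of the mTORC1 list stayed between -0.06 and -0.0014. With no level filter the Hippo median with oxymatrine was 0. Over the same scalings, the medians of the adaptor, STRIPAK, MAP3 kinase, JNK and p38, cortex and other Ste20-like lists crossed 0. That of the phosphatases ran from -0.05 to 0. After centring on the median, 1 Hippo gene, 0 MAP3 kinases and 1 mTORC1 gene were past 1.5-fold with oxymatrine, against 0, 1 and 2.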
